A study of Rattus norvegicus with 8 samples.

Results

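The 7 proteoglycan-cleaving ADAMTS proteases, *Adamts1*, *Adamts4*, *Adamts5*, *Adamts8*, *Adamts9*, *Adamts15*, and *Adamts20*, were followed in the Achilles tendon of rats after a single run. They were picked by gene symbol out of 32883 genes in the table, of which 21046 had at least 1 read and 13937 had enough reads to be tested. All 7 were in the table, and all 7 were tested. The right tendons came from young adult male wild-type Sprague-Dawley rats. One group of 4 rats ran uphill on a treadmill for 1 hour and was killed 12 hours after the run (12 hours p.r.), and 4 rats rested in cages and were killed at the same time (NC). No rat carried a transgene or received a drug, and the running rats had also been trained on the treadmill just before the run, so running and handling cannot be told apart. Stranded polyadenylate mRNA libraries, 1 per rat, held 7350509 to 10648648 reads on genes at 12 hours p.r. and 8385779 to 12951397 in the NC group.

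ADAMTS proteases (a disintegrin and metalloproteinase with thrombospondin motifs) are secreted zinc proteases that are made with a propeptide, which furin-like convertases remove. The members described here are known for cutting the large hyaluronan-binding proteoglycans, or hyalectans: aggrecan, versican, brevican, and neurocan. In tendon, versican lies around the cells and aggrecan is richest where the tendon is compressed, and both are turned over by these proteases. ADAMTS4 and ADAMTS5 are the main aggrecanases of cartilage. ADAMTS1, ADAMTS9, ADAMTS15, and ADAMTS20 are best known for cutting versican, and ADAMTS8 is a weak aggrecanase that was described, together with ADAMTS1, as an inhibitor of angiogenesis.

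Upstream sequences were at hand for 4 of the 7 genes, *Adamts1*, *Adamts4*, *Adamts9*, and *Adamts20*. Printed here are those of *Adamts1*, *Adamts4*, and *Adamts9*, because the ratio of *Adamts4* to each of the other two separated the groups, as described further down. Each is the 250 bases before the annotated start of the gene in the RefSeq annotation of the assembly GRCr8, written in the direction of transcription. They are chr11:38427385-38427634 on the minus strand for *Adamts1*, chr13:86202761-86203010 on the plus strand for *Adamts4*, and chr4:127019877-127020126 on the minus strand for *Adamts9*. Capitals mark matches, on either strand, to the AP-1 motif TGANTCA, the cAMP response element core TGACG, the E-box CACGTG, the GC box GGGCGG, or the TATA box TATAAA.
Adamts1: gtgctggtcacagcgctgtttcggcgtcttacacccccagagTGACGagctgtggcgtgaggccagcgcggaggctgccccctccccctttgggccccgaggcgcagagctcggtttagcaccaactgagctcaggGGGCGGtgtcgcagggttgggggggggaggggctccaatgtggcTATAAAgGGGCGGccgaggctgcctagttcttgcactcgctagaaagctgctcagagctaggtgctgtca
Adamts4: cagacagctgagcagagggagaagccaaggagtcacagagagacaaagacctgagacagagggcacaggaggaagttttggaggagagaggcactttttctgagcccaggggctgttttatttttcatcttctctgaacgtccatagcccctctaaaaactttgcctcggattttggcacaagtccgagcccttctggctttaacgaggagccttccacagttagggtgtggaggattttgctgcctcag
Adamts9: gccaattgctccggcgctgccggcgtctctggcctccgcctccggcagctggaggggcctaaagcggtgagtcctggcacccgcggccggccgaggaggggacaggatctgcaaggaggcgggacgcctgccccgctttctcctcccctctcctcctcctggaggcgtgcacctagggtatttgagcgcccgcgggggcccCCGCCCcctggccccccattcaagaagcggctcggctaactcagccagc
The *Adamts1* sequence held 4 matches: 1 response element core, 2 GC boxes, and 1 TATA box. The *Adamts4* sequence held 0 and the *Adamts9* sequence 1, a GC box on the opposite strand. Of the 33469 upstream sequences of this length in the annotation, 30.5% held a GC box, 18.2% a response element core, 12.9% a TATA box, 6.34% an AP-1 motif, and 5.59% an E-box. The GC content was 65.2% for *Adamts1*, 51.2% for *Adamts4*, and 71.6% for *Adamts9*, where the median over all upstream sequences was 51.2%. These matches describe the letters only.

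Levels of different genes were compared per gene length, as FPKM (fragments per kilobase of gene, scaled to the depth of the library) from the table of the authors. Averaged over all 8 rats, the order was *Adamts1* at 11.3 FPKM, *Adamts5* at 8.89, *Adamts9* at 7.15, *Adamts15* at 4.64, *Adamts4* at 1.84, *Adamts8* at 1.496, and *Adamts20* at 0.430. The median gene tested was at 8.67 FPKM, so only *Adamts1* and *Adamts5* lay above it, at percentiles 57.7 and 50.8 of all genes tested. *Adamts8* and *Adamts20* lay at percentiles 12.4 and 2.04. Neighbors in this order were compared within each rat by an exact sign-flip permutation test over all sets of signs, with Benjamini-Hochberg adjustment over the 6 pairs. *Adamts9* was above *Adamts15* in 8 of 8 rats (mean log2 ratio of 0.62, SD 0.32, exact adjusted p = 0.0234), and *Adamts15* was above *Adamts4* in 8 of 8 rats (1.35, SD 0.40, exact adjusted p = 0.0234). *Adamts1* and *Adamts5*, *Adamts5* and *Adamts9*, *Adamts4* and *Adamts8*, and *Adamts8* and *Adamts20* did not differ beyond their spread (exact adjusted p from 0.0625 to 0.273).

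**Figure D1:**
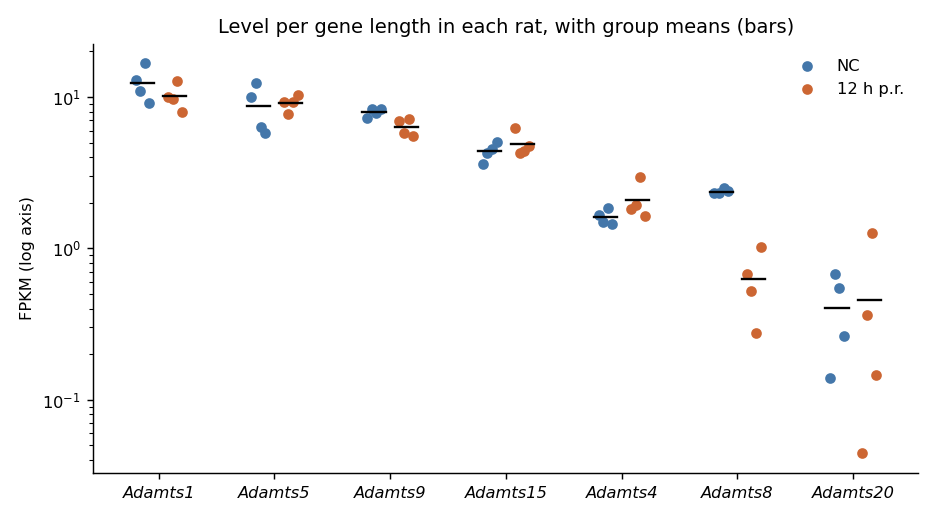
FPKM on a log axis of each gene in each rat, with NC rats in blue and 12 hours p.r. rats in orange and a bar at each group mean. The aggrecanase gene *Adamts5* sits beside *Adamts1* and *Adamts9* near the top, while *Adamts4* (1.44 to 2.94 FPKM) lies lower, and *Adamts8* is the gene whose groups stand furthest apart.

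The aggrecanase pair was therefore unequal in level, with a mean of 8.89 FPKM for *Adamts5* and 1.84 FPKM for *Adamts4*. The lowest rat for *Adamts5* was at 5.81 FPKM and the highest for *Adamts4* at 2.94 FPKM, so the values of these 2 genes did not overlap. The order of *Adamts4* and *Adamts8* differed between the groups. In the NC rats *Adamts8* was at 2.30 to 2.49 FPKM and *Adamts4* at 1.44 to 1.84 FPKM, and at 12 hours p.r. *Adamts8* was at 0.275 to 1.02 FPKM and *Adamts4* at 1.62 to 2.94 FPKM. *Adamts8* was thus above *Adamts4* in each NC rat and below it in each running rat.

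Summed over the 7 genes, the level at 12 hours p.r. was 33.7 ± 3.55 FPKM and that of the NC group 37.8 ± 3.77 FPKM (SD, n = 4 rats each), with overlap. *Adamts1* gave 29.9 ± 3.72% of this sum after running and 32.7 ± 6.49% in the NC group (SD, n = 4 each). *Adamts5* gave 27.3 ± 3.84% and 22.7 ± 7.00%, and *Adamts9* 18.9 ± 0.938% and 21.2 ± 3.01%. The share of *Adamts8* was 1.91 ± 1.04% at 12 hours p.r. and 6.32 ± 0.723% in the NC group, and that of *Adamts4* was 6.12 ± 1.22% and 4.26 ± 0.391%. The groups did not overlap in either of these last shares, since *Adamts8* ran up to 3.26% after running and from 5.69% in the NC rats, and *Adamts4* from 5.18% after running and up to 4.57% in the NC rats. As parts of 1 sum the shares depend on one another, and no rate over all genes was computed for them. In FPKM itself *Adamts4* overlapped, at 1.62 to 2.94 after running and 1.44 to 1.84 in the NC rats.

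The comparison of 12 hours p.r. with NC asked which of these genes were higher or lower 12 hours after a run. Counts were scaled to CPM (counts per 1e6 reads of the library, scaled by TMM factors) and tested with the quasi-likelihood test of edgeR, with Benjamini-Hochberg adjustment over all 13937 genes. With an adjusted p under 0.05 together with a change of 2-fold or more, 0 of the 7 genes were called, as were 0 of all genes tested (0%). At an unadjusted p under 0.05, 2 of 7 differed, *Adamts8* and *Adamts9*, both lower at 12 hours p.r., where 9.51% of all genes differed in either direction and 4.08% were lower. The same 2 genes were those whose rats did not overlap between the groups, where 6.06% of all genes did not overlap in either direction and 2.55% were lower without overlap. The median log2 fold change of the 7 was 0.09, and that of all genes 0.02. As these are bulk tissues, fewer cells that express a gene and less RNA per cell cannot be told apart. The p values set a group difference against the variation between these rats, read counting included.

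*Adamts8* showed the largest difference of the 7. In the NC group its expression was 6.97, 6.99, 7.55, and 7.22 CPM in replicates 1 to 4, and at 12 hours p.r. it was 2.07, 1.58, 0.833, and 3.10 CPM. The gap between the highest running rat and the lowest NC rat was wider than the spread within either group, and the NC rats lay close together. These values rest on 329 reads over the NC rats and 68 reads over the running rats, from 7 in replicate 3 to 33 in replicate 4. The log2 fold change was −1.90 (standard error, SE, 0.33; 95% interval −2.64 to −1.16, edgeR adjusted p = 0.314), which is 3.72-fold lower with an interval of 2.23- to 6.22-fold. By its unadjusted p it was at rank 11 of all genes tested, and at place 19 counted from the most negative log2 fold change. The exact permutation test over the 70 splits of the rats gave p = 0.0286, the smallest that 4 rats against 4 allow, and an adjusted p of 0.1 over the 7 genes.

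The test decided the call of *Adamts8*. The Wald test of DESeq2 on the same counts gave a log2 fold change of −1.90 with a DESeq2 adjusted p = 2.5e-05, so that 1 of the 7 genes was called, against 16 of all 13825 genes with an adjusted p called lower by DESeq2 (0.116%). On counts simulated from these rats, DESeq2 called 37 unchanged genes at an adjusted p under 0.05 and any fold change, where edgeR called 7. The simulation used the dispersions that edgeR estimated, so it cannot decide which of the tests is right for *Adamts8*. Across the 19 alternatives run, its log2 fold change ran from −2.26 to −1.07, all below 0, while the edgeR adjusted p ran from 0.116 to 0.738. Of the 8 fits that leave out 1 rat, the extremes were −2.26 when running replicate 4 was dropped and −1.65 when running replicate 3 was dropped. The spread of the NC rats, 0.270 CPM (SD, n = 4), was smaller than the 0.806 CPM that read counting alone would give at their depth. The 12 hours p.r. rats spread by 0.949 CPM (SD, n = 4), where counting gives 0.465 CPM.

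**Figure D2:**
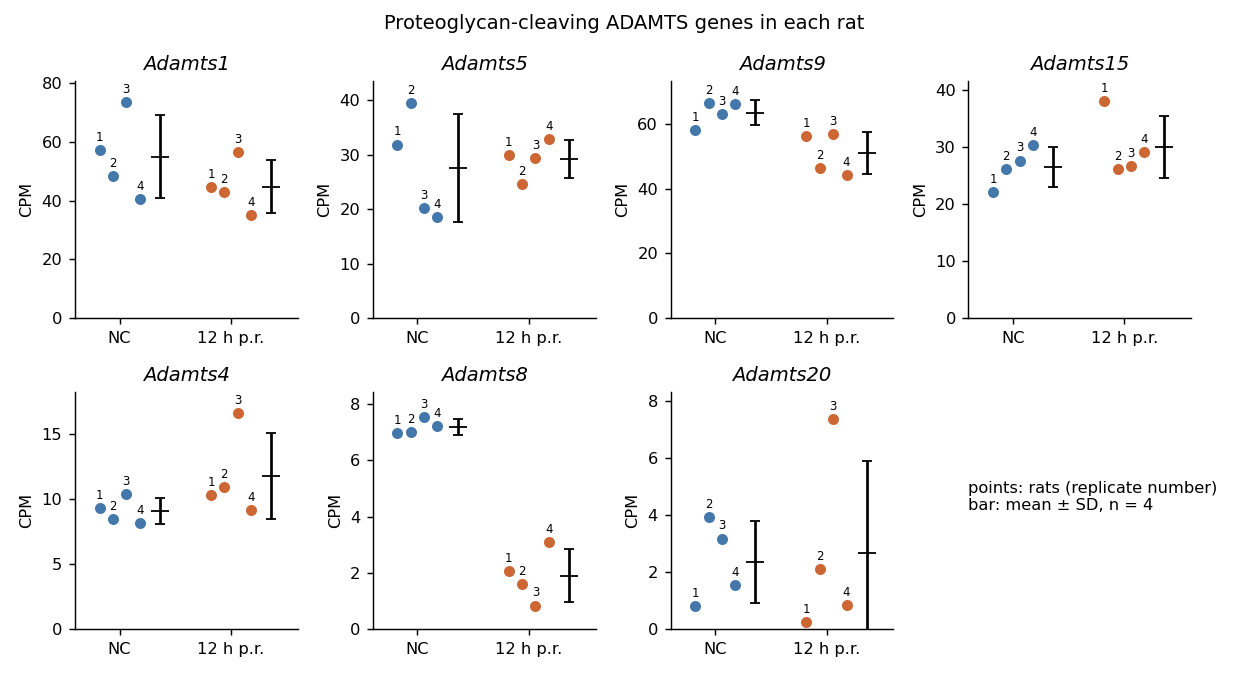
CPM of each gene in each rat on axes from 0, with the replicate number at each point and the mean ± SD of the 4 rats beside them. The *Adamts8* rats at 12 hours p.r. (0.833 to 3.10 CPM) lie under all NC rats (6.97 to 7.55 CPM), and *Adamts20* spreads over most of its axis in both groups, with an error bar that runs below 0.

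*Adamts9*, a versican-cutting protease with a GON domain and the closest relative of *Adamts20*, was slightly lower in every running rat. It was at 58.1, 66.3, 62.9, and 66.3 CPM in NC replicates 1 to 4 and at 56.2, 46.5, 57.0, and 44.2 CPM at 12 hours p.r. The gap between the groups was small, with 57.0 CPM in the highest running rat and 58.1 CPM in the lowest NC rat. Its log2 fold change was −0.32 (SE 0.11, 95% interval −0.55 to −0.08, edgeR adjusted p = 0.441). As its groups did not overlap, the exact permutation test gave its smallest possible p = 0.0286, with an adjusted p of 0.1 over the 7 genes. With 1 rat left out the log2 fold change ran from −0.37 to −0.25.

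The other versican-cutting genes lay within the spread of the rats. *Adamts1*, which is induced in many tissues by inflammation and acts in ovulation, was at 57.2, 48.6, 73.6, and 40.4 CPM in the NC rats and at 44.5, 42.9, 56.6, and 35.1 CPM at 12 hours p.r. In both groups replicate 3 was the highest rat and replicate 4 the lowest. Its 95% interval for the log2 fold change ran from −0.75 to 0.16, so that a difference of more than 2-fold lay outside it. The estimate was −0.12 without NC replicate 3 and −0.43 without 12 hours p.r. replicate 3.

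*Adamts15*, known from developing limbs and muscle, was at 22.0, 26.1, 27.6, and 30.4 CPM in the NC rats and at 38.0, 26.2, 26.7, and 29.1 CPM at 12 hours p.r. Only running replicate 1 lay above the NC rats. The log2 fold change was 0.18 (SE 0.15, 95% interval −0.16 to 0.51, edgeR adjusted p = 0.740), and it was 0.04 without that rat.

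*Adamts20*, which in mice is needed for pigment cells to colonize the skin, was the least expressed of the 7. It was at 0.802, 3.92, 3.17, and 1.53 CPM in the NC rats, and at 0.259, 2.11, 7.38, and 0.845 CPM at 12 hours p.r., where replicate 1 had 2 reads and replicate 3 had 62. Both the lowest and the highest of the 8 rats were running rats. The log2 fold change of 0.18 had a SE of 0.84 and a 95% interval from −1.71 to 2.08, and it was −1.13 without 12 hours p.r. replicate 3. The mean of log2(CPM + 0.5) was 0.26 lower at 12 hours p.r., the opposite sign, so no direction can be given for this gene at this depth.

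The rat with the most *Adamts20* was also the one with the highest summed level of skeletal muscle markers. The summed level of the 8 muscle markers in the table was 1649 to 35935 FPKM over the running rats, highest in replicate 3, and 1481 to 6547 FPKM over the NC rats. *Acta1*, *Ckm*, *Myh1*, *Tnnt3*, *Tnni2*, and *Mylpf* were highest in that rat. *Myh7* and *Mb* were not, at 51.2 and 283 CPM in that rat against 238 to 757 and 308 to 773 CPM in the NC rats. The 3 genes whose pattern over the 8 rats was most like that of *Adamts20*, by the root mean square difference of centered log2(CPM + 0.5), were *Vgll2* (0.264), *Pkia* (0.268), and *Mstn* (0.298), where the spread of *Adamts20* itself was 1.02. *Vgll2* is a cofactor gene of skeletal muscle, and *Mstn* encodes myostatin, a muscle growth inhibitor. As these genes were picked for likeness to *Adamts20*, this adds no test. When the muscle score was added to the fit, the log2 fold change of *Adamts20* was −0.11 and that of *Adamts8* −1.99.

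The 2 cartilage aggrecanases did not differ between the groups beyond their spread. *Adamts4* was at 9.30, 8.46, 10.4, and 8.16 CPM in the NC rats and at 10.4, 10.9, 16.7, and 9.20 CPM at 12 hours p.r. Running replicate 3 was the highest, and the other 3 running rats lay within or just above the NC range. Its 95% interval ran from −0.08 to 0.83 on the log2 scale, and the estimate of 0.37 became 0.16 without that rat. *Adamts5* was at 31.9, 39.6, 20.3, and 18.5 CPM in the NC rats and at 30.0, 24.6, 29.4, and 32.9 CPM at 12 hours p.r. The NC rats enclosed all running rats, and the log2 fold change was 0.09 (SE 0.24, 95% interval −0.44 to 0.62, edgeR adjusted p = 0.926).

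**Figure D3:**
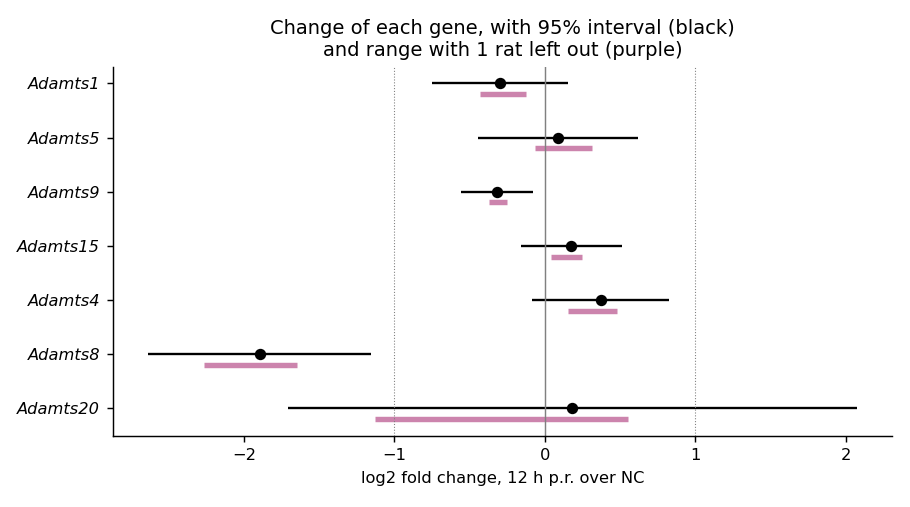
Log2 fold change of 12 hours p.r. over NC for each gene from edgeR (dot) with its 95% interval (black) and the range of the estimate when 1 rat is left out (purple), with dotted lines at a fold change of 2. The intervals of *Adamts8* (−2.64 to −1.16) and *Adamts9* (−0.55 to −0.08) lie below 0, and those of the other 5 genes include 0.

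To ask whether 2 of these genes changed unequally, the log2 ratio of their CPM + 0.5 was formed within each rat, which removes the scaling of the library apart from the added 0.5. Of the 21 pairs, 8 had groups that did not overlap, each with the smallest p the exact permutation test allows (p = 0.0286, adjusted p of 0.0750 over the 21 pairs), and 0 had an adjusted p under 0.05. *Adamts8* was in 5 of the 8, with every gene but *Adamts20*, and these 5 largely restate its own difference, since its ratio separated the groups against 92.4% of all other genes tested. Of the 15 pairs without *Adamts8*, 3 separated the groups, where 5.24% of all pairs of genes tested did. Each of the 3 shares *Adamts4* or *Adamts9* with another, so they are not separate results. Against *Adamts4* its log2 ratio was lower by the most, with a mean log2 ratio of *Adamts4* over *Adamts8* of 2.41 ± 0.949 at 12 hours p.r. and 0.31 ± 0.125 in the NC group (SD, n = 4 rats each). Against *Adamts15*, its neighbor in the genome of GRCr8 with no protein-coding gene between them, the log2 ratio of *Adamts8* was −3.74 ± 0.545 and −1.81 ± 0.168 (SD, n = 4 each). Of these adjacent genes, *Adamts15* overlapped between the groups and *Adamts8* did not. Their ratio did not pass the exact permutation test after adjustment (adjusted p of 0.0750).

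**Figure D4:**
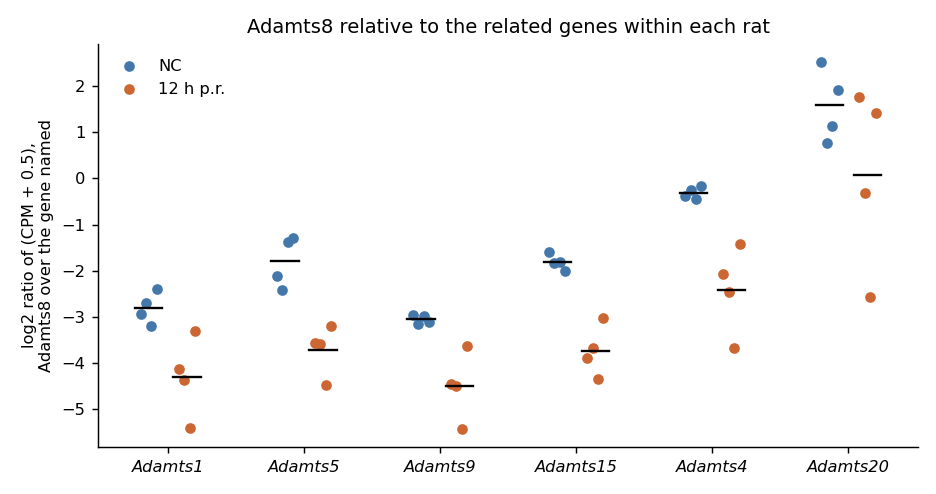
Log2 ratio of *Adamts8* to each of the other 6 genes within each rat, in NC rats (blue) and 12 hours p.r. rats (orange), with group means as bars. The running rats lie below the NC rats for 5 of the 6 genes, and the ratio to *Adamts20* overlaps.

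The other 3 pairs that separated the groups did not hold *Adamts8*. The log2 ratio of *Adamts1* to *Adamts4* was 1.74 to 2.05 at 12 hours p.r. and 2.24 to 2.76 in the NC rats, a difference of −0.61. The log2 ratio of *Adamts4* to *Adamts9* was −2.38 to −1.74 after running and −2.95 to −2.54 in the NC rats, a difference of 0.65. The log2 ratio of *Adamts9* to *Adamts15* was 0.56 to 1.08 after running and 1.11 to 1.38 in the NC rats, a difference of −0.49. Relative to *Adamts4*, then, *Adamts1* and *Adamts9* were lower in every running rat than in every NC rat, although neither gene alone was called. *Adamts1* and *Adamts5*, which are also adjacent in GRCr8, had a log2 ratio of 0.09 to 0.93 after running and 0.29 to 1.83 in the NC rats, with overlap.

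The genes most like *Adamts8* over the 8 rats were *Mc4r*, which encodes a melanocortin receptor, *Slc10a6*, which encodes a steroid sulfate transporter, and *LOC259244*, with root mean square differences of 0.418, 0.425, and 0.430 where the spread of *Adamts8* was 0.959. They were at 0.604, 2.26, and 6.43 CPM at 12 hours p.r. and at 3.31, 6.05, and 15.7 CPM in the NC group on average, and as they were picked for likeness to *Adamts8*, this adds no test. The genes most like *Adamts9* were *Med7* at 0.059 (a subunit of the Mediator complex), *Usp38* at 0.077, and *Rbbp6* at 0.082. The spread of *Adamts9* itself was 0.203, smaller than that of *Adamts8*, so these differences do not rank the proteases by how near their like genes are. For *Adamts4* the nearest genes were *Dusp23* (0.059), *Syngr2* (0.067), and *Kif3c* (0.078), and for *Adamts15* *Txlna* (0.071), *Thsd7a* (0.083), and *Tox2* (0.087). *Adamts1* was nearest to *Kctd21* (0.137), *AABR07045684.1* (0.145), and *Senp1* (0.158), and *Adamts5* to *Lrriq3* (0.144), *LOC100911625* (0.148), and *Klc4* (0.151). None of the 7 proteases was among the 3 nearest genes of another, which says little with 13937 genes tested. By the same measure, the nearest other protease was at place 623 for *Adamts1*, the closest of the 7, and at place 7908 for *Adamts5*, the furthest.

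The 12 other ADAMTS proteases, which process procollagens, fibrillin-rich matrix, and other substrates, were all tested, and 1 was higher and 1 lower at an unadjusted p under 0.05. Of all genes tested, 5.44% were higher and 4.08% lower by this measure. Their median log2 fold change was −0.03. The most expressed were *Adamts2*, a procollagen N-proteinase, at 29.7 FPKM, *Adamts10*, which acts on microfibrils, at 20.8 FPKM, and *Adamts12*, which cuts cartilage oligomeric matrix protein, at 9.75 FPKM, with log2 fold changes of 0.01, 0.10, and −0.06. *Adamts18* was at 0.401, 0.245, 1.21, and 0.425 CPM in the NC rats and 2.46, 1.32, 1.43, and 1.31 CPM at 12 hours p.r., a log2 fold change of 1.43 (SE 0.48, edgeR adjusted p = 0.443). Its groups did not overlap, and its reads numbered 2 to 19 per rat. *Adamts19* was lower (log2 fold change of −2.20, SE 0.93, edgeR adjusted p = 0.507), with 0 to 13 reads in the running rats and 85 reads in NC replicate 4 against 9 to 21 in the other NC rats.

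None of the 5 ADAMTS-like proteins tested, matrix proteins without a protease domain, had an unadjusted p under 0.05 (median log2 fold change of −0.18), and the symbols *Adamtsl1* and *Thsd4* matched no gene in the table. Of the substrates, aggrecan (*Acan*) was at 34.3 to 128 CPM in the NC rats and 9.996 to 114 CPM at 12 hours p.r., and versican (*Vcan*) at 104 to 179 CPM and 115 to 172 CPM. Their log2 fold changes were 0.15 (SE 0.65) and 0.01 (SE 0.18), and both overlapped. Brevican (*Bcan*) and neurocan (*Ncan*), hyalectans of the nervous system, had 58 and 41 reads over the 8 rats and were not tested. In all, 4 of the 8 genes of hyalectans and link proteins were tested and 0 differed at an unadjusted p under 0.05.

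Of 11 genes for other substrates, 2 were lower and 0 higher at an unadjusted p under 0.05 (median log2 fold change of 0.04), where 4.08% of all genes were lower. *Sema3c*, which encodes a guidance protein released from matrix by ADAMTS1, was at 272, 189, 191, and 183 CPM in the NC rats and 136, 152, 114, and 166 CPM at 12 hours p.r., without overlap (log2 fold change of −0.55, SE 0.17, edgeR adjusted p = 0.433). *Sdc4*, which encodes the cell surface proteoglycan syndecan 4, had a log2 fold change of −0.78 (SE 0.28, edgeR adjusted p = 0.468), with 42.3 CPM in the highest running rat and 37.7 CPM in the lowest NC rat.

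Among the inhibitors and the uptake receptor, 1 of 5 genes tested was lower and 0 were higher at an unadjusted p under 0.05, where 4.08% of all genes were lower. *Timp3*, which encodes the main tissue inhibitor of these proteases, was at 425 to 607 CPM in the NC rats and 396 to 446 CPM at 12 hours p.r. (log2 fold change of −0.19, SE 0.14). Per length, its mean of 258.9 FPKM was above that of each of the 7 proteases. *Timp4* was at 62.4, 64.0, 55.7, and 88.4 CPM in the NC rats and 54.6, 33.9, 35.5, and 27.2 CPM at 12 hours p.r., with the highest running rat just under the lowest NC rat. *Timp1* and *Timp2* had log2 fold changes of 0.21 (SE 0.34) and −0.01 (SE 0.21). *Lrp1*, the receptor that clears ADAMTS4 and ADAMTS5 from the matrix, had one of 0.27 (SE 0.17). *A2m*, which encodes a protease-trapping protein, had 4 reads over the 8 rats and was not tested.

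The 5 convertase and activating genes gave 0 differences at an unadjusted p under 0.05 (median log2 fold change of −0.06), with *Furin* at 80.6 to 120 CPM in the NC rats and 80.0 to 105 CPM at 12 hours p.r. The inducer list held cytokines known to raise *Adamts4* and *Adamts5* in cartilage, with their receptors and Runx factors. Of its 8 genes, 5 were tested and 0 differed, and the cytokine genes *Il1a*, *Tnf*, and *Osm* had 6, 6, and 54 reads over the 8 rats and were not tested.

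**Figure D5:**
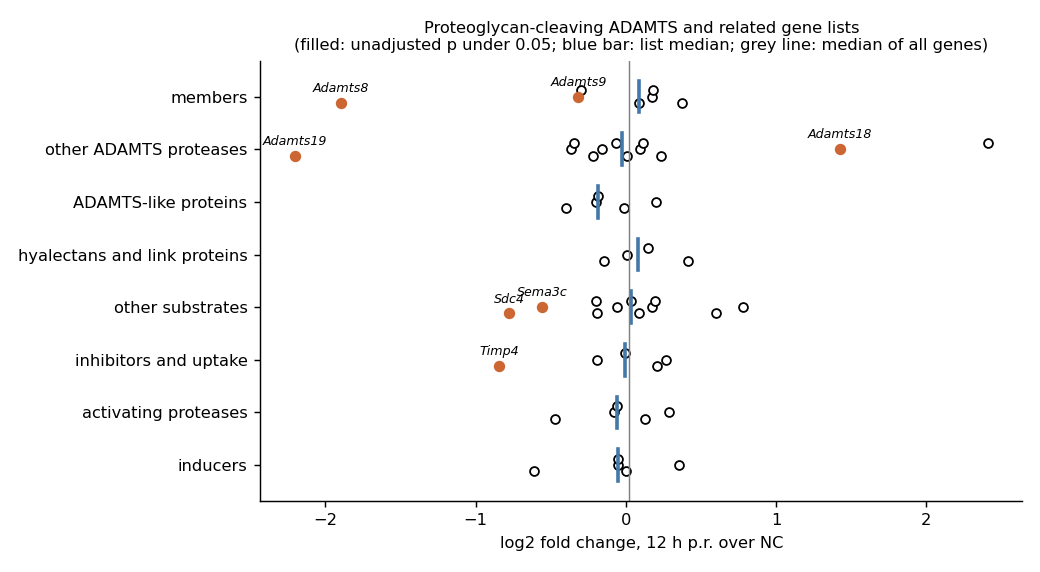
Log2 fold change of 12 hours p.r. over NC for every tested gene of the 7 proteases and 7 related lists, 1 dot per gene, filled and named where the unadjusted edgeR p is under 0.05. The blue bar is the list median and the grey line the median of all genes (0.02), and *Adamts8*, *Adamts19*, and *Adamts18* are the filled dots furthest from it.

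All 8 tenocyte markers were detected and tested, 4 with a log2 fold change above 0 and 4 below. *Scx* (0.62), *Mkx* (0.78), and *Thbs4* (0.56) were higher at an unadjusted p under 0.05, where 5.44% of all genes were higher, and *Col1a2* (0.39), *Kera* (−0.017), *Tnmd* (−0.07), *Col1a1* (−0.11), and *Egr1* (−0.42) did not pass it. The summed level of each of 8 marker lists overlapped between the groups, and the marker symbols *Pecam1*, *Myh2*, and *Myh4* matched no gene in the table. All 7 leukocyte markers had a log2 fold change below 0 (median of −0.32), the summed level being 322 to 1768 FPKM at 12 hours p.r. and 490 to 2675 FPKM in the NC rats. The 4 cartilage and bone markers tested did too (median of −1.25), with sums of 13.8 to 416 FPKM and 26.6 to 914 FPKM. Endothelial markers summed to 435 to 555 FPKM and 444 to 535 FPKM. The log2 fold change of *Adamts8* was −1.99 with the muscle score in the fit, and −1.62 with replicate 3 of both groups left out. These were the rats with the highest summed muscle markers and the highest summed cartilage and bone markers. The part of the leukocyte, endothelial, and pericyte and smooth muscle makeup in the change of *Adamts8* was not tested.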

How the data were processed

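The authors aligned reads to Rnor_6.0 with HISAT2 2.1.0 and deposited unnormalized counts per Ensembl gene from featureCounts 1.6.3. Whether counting used the strand, and how reads that match several genes were treated, is not given in the sources used here. The FPKM values deposited by the authors are those counts divided by gene length and a factor per rat. The recovered lengths were whole numbers, within 0.01, in 100% of genes. The third table holds the authors' own fold changes and p values from DESeq2 1.30.1 and was not used.

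Counts were filtered with filterByExpr, scaled by TMM and tested with the quasi-likelihood test of edgeR 4.0.16 over 13937 genes, with Benjamini-Hochberg adjustment. Single genes and ratios used 2-sided exact permutation tests on log2(CPM + 0.5), which cannot go below 0.0286, and neighbors in level 2-sided sign-flip tests, which cannot go below 0.0078. Total counts ran from 7350509 to 12951397 per rat, so 1 read was worth 0.0755 to 0.132 CPM. Simulated counts were drawn with the dispersions that edgeR estimated from these rats. On them edgeR called 101 of 110 genes changed by 2 on the log2 scale and 48 of 87 changed by 1, with 7 unchanged genes called. DESeq2 called 106 of 112 and 65 of 88, with 37 unchanged genes called. Alternatives were DESeq2 1.42.0, other scaling factors and filters, limma 3.58.1 on log2(FPKM + 1) and log2(FPKM + 0.1), the replicate number as a block, robust estimation, a muscle covariate and rats left out. Nothing in the labels says more of the replicates than that they are separate samples.

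The members and gene lists were chosen with earlier results of these data known. Named were the 7 proteases, each hyalectan and TIMP gene, *A2m*, *Lrp1*, *Furin*, listed genes with an unadjusted p under 0.05, the 3 other ADAMTS genes with the highest FPKM and the 3 genes most like each protease. Other genes named were chosen after their values were seen. Coordinates are given for GRCr8 only, because the files use Rnor_6.0. R 4.3.3 and Python 3.11.15 were used.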

Additional observations from a re-analysis of the deposited data

Results flagged for a closer look

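Each group of 4 rats was searched for 1 rat far from the others by Dixon's criterion, in the 46 named genes. Of the 92 groups, 11 held such a rat, where 1 in 20 would give 4.6 by chance, and none was in one of the 7 proteases. The genes were named in part by their p value or likeness and are not independent, so 11 against 4.6 does not show an excess. At 12 hours p.r., replicate 3 was lowest in *Acan* (9.996 CPM, the others at 78.3 to 114) and in *Lrp1* (551 CPM, the others at 875 to 910), and it alone had a read of *A2m* (0.119 CPM). Replicate 1 was highest in *Adamts18* (2.46 CPM, the others at 1.31 to 1.43) and *Tox2* (2.20 CPM, the others at 1.19 to 1.31), and replicate 2 lowest in *Lrriq3* (0.790 CPM, the others at 1.16 to 1.22).

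In the NC group, replicate 4 was highest in *Adamts19* (7.22 CPM, the others at 1.10 to 1.59) and in *Slc10a6* (9.52 CPM, the others at 4.66 to 5.06). Replicate 3 was highest in *LOC259244* (23.9 CPM, the others at 12.5 to 13.8), replicate 1 in *Sema3c* (272 CPM, the others at 183 to 191), and replicate 2 was lowest in *Timp1* (67.3 CPM, the others at 130 to 138).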

How the results depend on the processing

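Of 264 values recomputed under alternatives, 239 kept their direction and side of the threshold or stayed within 1.5 times. *Adamts8* kept its direction in every alternative run and was called only by the Wald test of DESeq2 (−1.90, 1 of the 7 genes called). That test called 13 genes higher and 16 lower, against 0 and 0 by edgeR (1326 at an unadjusted p under 0.05), limma on log2(FPKM + 0.1) called 3 lower, and edgeR at any fold change 1 lower. *Adamts5* turned to −0.034 with both replicates 3 left out and ran from −0.063 to 0.31 with 1 rat left out. *Adamts20* turned to −0.0028 and −0.24 by limma with 1 and 0.1 added, −0.11 with the muscle covariate, −0.92 without both replicates 3, and ran from −1.13 to 0.55 with 1 rat left out. The number of genes of the related lists that were higher at an unadjusted p under 0.05, which was 1, became 2 without the filter and by either limma fit and 8 without both replicates 3. With 1 rat left out it ran from 0, without 12 h p.r. replicate 1, to 5, without 12 h p.r. replicate 3, and was 3 without NC replicate 2, and the number lower, which was 4, ran from 2, without NC replicate 4, to 5. The causes of these moves were not tested. Of all genes, 5.44% were higher and 4.08% lower at an unadjusted p under 0.05 in the main edgeR fit. These shares were not computed for the alternatives, so the moves of the list counts cannot be set against them.

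The replicate numbers showed no clear pairing of the rats. The deviations of same-numbered rats correlated at −0.193 to 0.116, and 1 of 4 running rats matched its own number best. With so few rats this cannot decide whether same-numbered rats were handled together, and the labels do not say. With the replicate block, *Adamts20* was −0.28, *Adamts8* −1.99, and 2 of the list genes were higher at an unadjusted p under 0.05. The block took *Adamts1* (−0.28) across that threshold, from an unadjusted edgeR p of 0.173 to 0.0228 (edgeR adjusted p = 0.698), which makes 3 of the 7 genes under it in place of 2. The share of all genes under it with the block was not computed, so this count has nothing to be set against. Depth limits *Adamts20* and *Adamts8* most, with 191 and 397 reads over the 8 rats.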

Other observations

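*Adamts13*, which encodes the protease of von Willebrand factor, had 23, 34, 13, and 15 reads at 12 hours p.r. and 0, 18, 0, and 1 reads in NC replicates 1 to 4. Its log2 fold change was 2.41 (SE 1.10, 95% interval −0.07 to 4.89, edgeR adjusted p = 0.531), and NC replicate 2, at 2.21 CPM, lay above 2 of the running rats. It was chosen after its values were seen, as the other ADAMTS gene with the highest log2 fold change.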
